A study of Mus musculus with 3 samples.

Results

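The genes *Gfi1*, *Gfi1b*, *Kdm1a* and *Rcor1* were followed through single-cell transcriptomes of adult mouse heart endothelium, and their 4 rows were taken by name out of 27985 genes in the raw counts. The question was in which cells each of them was transcribed while endothelium turned towards blood, and how each varied with *Runx1* detection. The study sorted cardiac endothelial cells from female GFP-transgenic mice of 12 to 16 weeks as cells positive for GFP, CD31 and VE-Cad and negative for CD41, CD45, PDGFRA and PDGFRB. These cells were sequenced without culture (0 h) and following 24, 48, 72 or 96 h of co-aggregation with *Mesp1*der PDGFRA+ stromal cells (PSCs, marked by DsRed) of the E11.5 aorta-gonad-mesonephros region, in medium with an interleukin, SCF and Flt3L. After culture GFP+ cells with CD31 and VE-Cad and without PDGFRA were sorted again, so the gate was set against blood cells that had lost surface VE-cadherin. Endothelial transcripts were nevertheless low in many of the collected cells, as given below. Fresh cells and all culture times were pooled into 3 libraries, and the sources used here give neither the time nor the pool of any cell. All 9562 cells were therefore treated as 1 sample, and no test was run.

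*Gfi1* and *Gfi1b* encode related zinc-finger repressors. Through a short SNAG domain at their amino end both bind the demethylase LSD1, the product of *Kdm1a*, and with it the scaffold CoREST, the product of *Rcor1*, and histone deacetylases, which together remove active histone marks. In the embryonic aorta both repressors act downstream of RUNX1 and silence endothelial genes as haemogenic endothelium turns into blood. In adult blood GFI1 is best known from stem cells, neutrophils and lymphocytes, and GFI1B from megakaryocytes and erythroid cells.

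In GENCODE annotation of mm10 *Gfi1* (ENSMUSG00000029275) lies on the minus strand of chromosome 5 at 107716657-107726036, and *Gfi1b* (ENSMUSG00000026815) on the minus strand of chromosome 2 at 28609450-28621982. *Kdm1a* (ENSMUSG00000036940) lies on the minus strand of chromosome 4 at 136550540-136602723 and *Rcor1* (ENSMUSG00000037896) on the plus strand of chromosome 12 at 111039351-111115901. The 3′ end of *Kdm1a* overlaps *Luzp1* on the opposite strand, and the 5′ end of *Gfi1* overlaps the noncoding A430072P03Rik on the opposite strand. Gm12987, a pseudogene, lies within *Kdm1a* and Gm48632 within *Rcor1* on the same strand, and reads could have been shared with them.

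The start regions of the repressor genes are shown because these were the members found in few clusters. They are RefSeq promoters of build GRCm38.p6, from 250 bases before to 50 after the annotated start, read on the gene's own strand, and *Gfi1* has 2 such entries. Capitals mark matches on either strand to GATAA (GATA factors), AATCA (the core read by GFI zinc fingers), TGTGGT (RUNX) and GGAAG (ETS).
*Gfi1b* at chr2:28621933-28622232, minus strand: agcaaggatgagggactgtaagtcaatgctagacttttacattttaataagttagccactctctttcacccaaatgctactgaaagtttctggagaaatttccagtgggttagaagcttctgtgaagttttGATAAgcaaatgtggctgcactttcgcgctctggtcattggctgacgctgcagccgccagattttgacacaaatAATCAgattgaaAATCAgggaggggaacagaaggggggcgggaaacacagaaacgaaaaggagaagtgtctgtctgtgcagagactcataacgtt
*Gfi1* upstream start at chr5:107725756-107726055, minus strand: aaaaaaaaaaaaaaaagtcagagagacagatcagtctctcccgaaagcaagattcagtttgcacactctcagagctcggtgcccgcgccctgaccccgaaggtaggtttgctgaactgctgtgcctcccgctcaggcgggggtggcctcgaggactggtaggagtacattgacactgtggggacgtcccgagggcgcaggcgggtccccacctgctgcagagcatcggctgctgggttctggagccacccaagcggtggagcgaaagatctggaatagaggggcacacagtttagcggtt
*Gfi1* downstream start at chr5:107724294-107724593, minus strand: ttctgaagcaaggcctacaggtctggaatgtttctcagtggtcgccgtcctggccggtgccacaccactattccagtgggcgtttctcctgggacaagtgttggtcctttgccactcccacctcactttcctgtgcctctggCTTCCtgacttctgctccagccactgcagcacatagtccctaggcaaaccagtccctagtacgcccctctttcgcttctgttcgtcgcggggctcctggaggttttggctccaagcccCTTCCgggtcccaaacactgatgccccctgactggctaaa

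The *Gfi1b* window held 1 GATAA at -119 and AATCA at -45 and -33, counted from the start, whereas neither *Gfi1* window held GATAA or AATCA, and none of the 3 held TGTGGT. The downstream *Gfi1* window held 2 matches to GGAAG, read as CTTCC. No matches overlapped. Of 32851 promoters in the table, 25.4% held GATAA, 37.0% AATCA, 16.8% TGTGGT and 71.4% GGAAG, so a match in 1 window is a description only. The *Kdm1a* and *Rcor1* windows held 29 and 31 CpG dinucleotides, the *Gfi1* windows 16 and 10 and the *Gfi1b* window 7, beside a median of 7 over all promoters.

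The 7 clusters are those deposited by the authors, numbered from the highest *Cdh5* to the highest *Runx1*, so the place of *Runx1* in this order is not a finding. The clustering used these counts too, and all differences between clusters are descriptions. Endothelial marker genes summed to 54.1, 52.0 and 36.9 UMIs per 10,000 in clusters 0, 1 and 2, where cluster 1 also had macrophage genes at 5.78. In clusters 3 to 6 the endothelial genes summed to 5.79, 4.53, 5.49 and 6.43. Germ or pluripotent genes led in cluster 3 (39.4), stromal genes in cluster 4 (20.1), granulocyte and macrophage genes in cluster 5 (16.6 and 19.7), and megakaryocyte genes in cluster 6 (203). These clusters held 728, 799, 5396, 239, 518, 1572 and 310 cells, and their median depth ran from 7875 UMIs in cluster 1 to 36065.5 in cluster 5. A level is the sum of a gene's UMIs over a group of cells per 10,000 UMIs of that group, where fewer expressing cells and fewer transcripts per cell cannot be told apart. Its range in parentheses is an exact Poisson 95% interval, shares of cells carry exact binomial (Clopper-Pearson) intervals, and log2 ratios carry conditional binomial intervals. All cover counting error only, not the spread between libraries, animals or cultures. Those of levels and ratios take the UMIs of a cell as independent, so they also leave out the spread between cells.

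*Gfi1* was found mainly in a small part of the endothelial-like cluster 0 and in cluster 5. Of its 776 UMIs, 534 (68.8%) lay in cluster 5 and 199 (25.6%) in cluster 0. Its level in cluster 0 was 0.158 (0.137-0.182), with 0.207, 0.131 and 0.132 in libraries 1 to 3. In cluster 5 the level was 0.0874 (0.0802-0.0952), with 0.0839, 0.0954 and 0.0862 in the libraries. The 3 libraries of cluster 0 all lay above the 3 of cluster 5, by a log2 ratio of 0.85 (0.61-1.09) over all cells.

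In the other 5 clusters *Gfi1* was near the limit of detection. Cluster 1 held 7 UMIs, of which 6 lay in a single cell, and cluster 2 held 32 UMIs in 21 of 5396 cells. The germ or pluripotent-like cluster 3, the stromal-like cluster 4 and the megakaryocyte-like cluster 6 held 1, 2 and 1. Against cluster 2, which is also endothelial-like and deeper (median 22493 against 14061 UMIs), the level of *Gfi1* in cluster 0 was higher by a log2 ratio of 6.12 (5.57-6.70).

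The share of cells with *Gfi1* was small even where its level was highest. With each cell thinned to 5,000 UMIs, 30 of 722 cells of cluster 0 had a *Gfi1* UMI (4.16%, 2.82-5.88) and 60 of 1568 of cluster 5 (3.83%, 2.93-4.90). As background, 0 of 239 cells of cluster 3 had one, where a limit of 3 counts allows a share of cells with a UMI of up to 1.26%, and 1 of 512 of cluster 4 (0.195%, 0.00494-1.08), where median depths were 23684 and 19475.5 UMIs before thinning. At their own depth 59 cells of cluster 0 held the 199 UMIs, with a median of 3 and up to 10 in a cell, and 17 of them held 5 or more. *Gfi1* was therefore concentrated in few cells of the cluster.

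*Gfi1b* lay mostly in clusters 6 and 5, which held 1743 (55.4%) and 1302 (41.4%) of its 3147 UMIs. In the megakaryocyte-like cluster 6 its level was 1.62 (1.54-1.70), with 1.58, 1.61 and 1.68 in the libraries. In cluster 5 it was 0.213 (0.202-0.225), with 0.186, 0.256 and 0.216. Clusters 0 to 4 lay between 0.00169 in cluster 4 and 0.0154 in cluster 3, and the libraries of clusters 5 and 6 lay above every library of these 5.

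At 5,000 UMIs per cell, *Gfi1b* was detected in 134 of 309 cells of cluster 6 (43.4%, 37.8-49.1) and 118 of 1568 of cluster 5 (7.53%, 6.27-8.94). Background shares were 4 of 239 in cluster 3 (1.67%, 0.458-4.23) and 1 of 512 in cluster 4 (0.195%, 0.00494-1.08). Cluster 0, where the level of *Gfi1* was highest, had *Gfi1b* in 7 of 722 cells (0.970%, 0.391-1.99), a share within the range of that background. At their own depth 78.1% of the cells of cluster 6 held a *Gfi1b* UMI, with up to 36 in a cell.

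**Figure D1:**
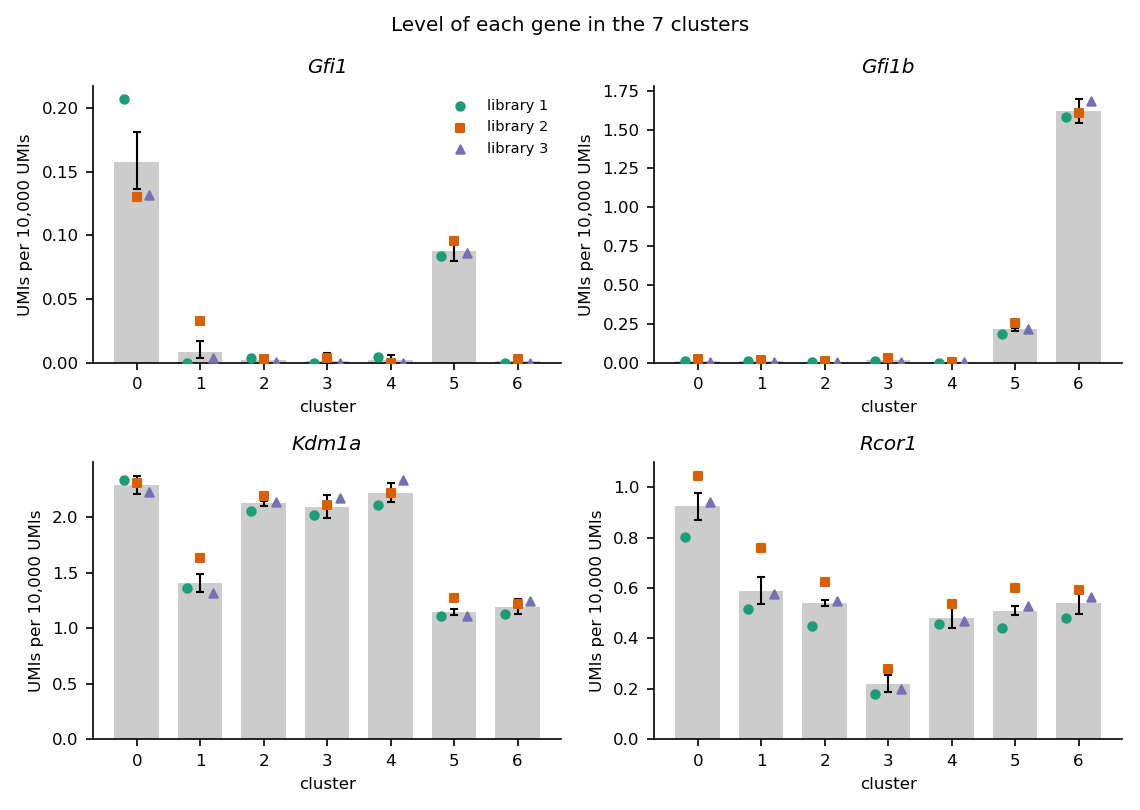
Level of each gene (vertical axis, UMIs per 10,000 UMIs, each panel on its own scale from 0) in clusters 0 to 6 (horizontal axis). Bars give the level over all cells with a 95% Poisson interval, and points the 3 libraries. *Gfi1* stands in clusters 0 and 5, *Gfi1b* in clusters 6 and 5, and *Kdm1a* and *Rcor1* in all 7.

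*Kdm1a*, in contrast, was found in every cluster. The endothelial-like clusters 0 and 2 had levels of 2.29 (2.20-2.37) and 2.12 (2.10-2.15), and clusters 3 and 4 had 2.09 (1.99-2.20) and 2.22 (2.13-2.30). It was lower in cluster 1, at 1.41 (1.33-1.49), and in clusters 5 and 6, at 1.15 (1.12-1.17) and 1.19 (1.13-1.26). The intervals of clusters 5 and 6 overlap, as do those of clusters 2 and 3 and of clusters 0 and 4. The libraries gave 1.11, 1.27 and 1.11 in cluster 5 and 1.13, 1.22 and 1.25 in cluster 6.

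Counted per cell rather than per 10,000 UMIs, the clusters had another order. A cell of cluster 5 held 4.46 *Kdm1a* UMIs on average and one of cluster 6 held 4.14, beside 4.89 over clusters 0 to 2 together. These were above cluster 0, at 3.95, and below clusters 2, 3 and 4, at 5.53, 6.25 and 5.07. Median cell depth was 36065.5 UMIs in cluster 5 and 14061 in cluster 0. Cluster 1, the shallowest, held 1.48 *Kdm1a* UMIs per cell.

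*Rcor1* also occurred in every cluster, with another order. Its level was highest in cluster 0, at 0.925 (0.872-0.979), with 0.802, 1.05 and 0.943 in the libraries. It was lowest in cluster 3, at 0.219 (0.186-0.256), with 0.178, 0.278 and 0.197. The other 5 clusters lay between 0.482 (0.443-0.523) in cluster 4 and 0.588 (0.538-0.643) in cluster 1. Against cluster 2, cluster 0 was higher by a log2 ratio of 0.78 (0.69-0.87), with 0.83, 0.74 and 0.78 in the libraries.

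To read these values against all genes, a gene was called where the summed counts of 2 groups differed at least 2-fold per 10,000 UMIs. The direction had to be the same in each of the 3 libraries. Only genes with at least 20 UMIs in both groups together were measured. The call asks for no interval, so where groups differ much in size, 0 or few UMIs in the smaller group can give it. Between cluster 5 and the endothelial-like clusters 0 to 2, 12.9% of 15645 genes were called higher and 23.7% lower. *Gfi1* and *Gfi1b* were 2 of 4 members called higher, with log2 ratios of 2.57 (2.35-2.80) and 5.27 (4.96-5.60), and no member was called lower. For *Gfi1* the call depends on the mix of clusters, as cluster 0 held 199 of its 238 UMIs in clusters 0 to 2. Its level in cluster 0 alone, 0.158, was above the 0.0874 of cluster 5. *Kdm1a* lay at -0.87 (-0.91 to -0.83) and *Rcor1* at -0.16 (-0.22 to -0.10), beside a median of -0.14 over all genes tested. *Kdm1a* was below this median in each library, at -0.87, -0.77 and -0.92.

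Between cluster 6 and clusters 0 to 2, 10.5% of 15104 genes were called higher and 25.8% lower. *Gfi1b* was the 1 member of 4 called higher, with a log2 ratio of 8.20 (7.89-8.52). *Gfi1* was the 1 called lower, at -3.99 (-9.30 to -1.50) from a single UMI in cluster 6. Of its 238 UMIs in clusters 0 to 2, 199 lay in cluster 0, so the call mainly sets cluster 6 against cluster 0. *Kdm1a* lay at -0.82 (-0.90 to -0.74) and *Rcor1* at -0.08 (-0.21 to 0.04), beside a median of -0.21 over all genes.

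Between clusters 5 and 6 themselves, 14.1% of 13665 genes were called higher in cluster 5 and 9.45% lower. The repressors parted here, with *Gfi1* called higher in cluster 5, at 534 UMIs against 1, and *Gfi1b* called lower. For *Kdm1a* and *Rcor1* the log2 ratios were -0.05 (-0.14 to 0.03) and -0.08 (-0.21 to 0.05).

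Of 12 further genes of the LSD1-CoREST complex, most were found in every cluster like *Kdm1a*. Against clusters 0 to 2, cluster 5 had 0 of 12 called higher and 1 lower, beside 12.9% and 23.7% of all genes. Cluster 6 had 1 of 12 higher and 0 lower, beside 10.5% and 25.8%. The median log2 ratios of the list were -0.41 and -0.26, beside -0.14 and -0.21 over all genes. The gene called lower in cluster 5 was *Hmg20b*, which encodes a small subunit of the complex, with 0.587 UMIs per 10,000 beside 1.70, 1.20 and 1.55 in clusters 0, 1 and 2. The gene called higher in cluster 6 was *Gse1*, which encodes a protein found with CoREST, with 0.761 beside 0.262, 0.174 and 0.119. *Rcor2*, the CoREST paralogue, was highest in cluster 4 (0.546) and next in cluster 3 (0.439), where the level of *Rcor1* was lowest.

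*Runx1* encodes the transcription factor on which the emergence of blood from endothelium depends. For the comparison within clusters, cells with at least 1 *Runx1* UMI among 5,000 were taken as *Runx1*-positive. In cluster 0 they were 54 of 722 cells, and most *Gfi1* UMIs lay in them. These cells held 129 of the 199 *Gfi1* UMIs of cluster 0, at 1.08 UMIs per 10,000 against 0.0616 in the 668 negative cells. The log2 ratio was 4.12 (3.69-4.57), with 3.82, 4.79 and 3.99 in the libraries. Levels after such a split were always taken from all UMIs of the cells. *Gfi1* was the 1 member of 4 called higher, beside 2.52% of 11477 genes.

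Counted by cells, 35 of the 54 *Runx1*-positive cells of cluster 0 held a *Gfi1* UMI (64.8%, 50.6-77.3) and 24 of the 668 negative cells did (3.59%, 2.32-5.30). By library these were 16 of 24, 13 of 19 and 6 of 11 positive cells, beside 10 of 248, 5 of 265 and 9 of 155 negative cells. Detection of *Gfi1* here was at each cell's own depth, and the median depths were 20597 and 13809.5 UMIs. With *Gfi1* also read at 5,000 UMIs the numbers were 19 of 54 (35.2%, 22.7-49.4) and 11 of 668 (1.65%, 0.825-2.93). Some cells without a *Runx1* UMI therefore still held *Gfi1*, and at this depth a missing UMI does not show a missing transcript.

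Of the other members in cluster 0, *Gfi1b* had 7 UMIs in the *Runx1*-positive cells and 8 in the negative ones, too few for a call. Its log2 ratio was 3.05 (1.35-4.71) and did not have 1 direction in the libraries, but library 3 held only 1 of these UMIs. *Kdm1a* was at 2.35 and 2.28 UMIs per 10,000, a log2 ratio of 0.04 (-0.14 to 0.22). *Rcor1* was at 1.01 and 0.918, a log2 ratio of 0.14 (-0.15 to 0.41). For both LSD1 partners the interval included 0.

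In cluster 5, 643 of 1568 cells were *Runx1*-positive, but the negative cells there still held *Runx1* at 0.855 UMIs per 10,000 against 1.94. *Gfi1* was at 0.116 in positive and 0.0673 in negative cells, a log2 ratio of 0.79 (0.53-1.04), with 0.64, 1.36 and 0.54 in the libraries. *Gfi1b* was at 0.211 and 0.215, a log2 ratio of -0.03 (-0.19 to 0.14), with -0.64, 0.48 and 0.09. None of the 4 members was called higher, beside 1.10% of 13293 genes. With *Runx1* read at each cell's own depth the *Gfi1* ratio was 1.28, and with at least 2 *Runx1* UMIs among 5,000 it was 1.63, so its place below 2-fold depended on the split. The ratios of *Kdm1a* and *Rcor1* were 0.07 (0.01-0.14) and 0.01 (-0.09 to 0.12).

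In cluster 6, 167 of 309 cells were *Runx1*-positive, and the negative cells held *Runx1* at 1.25 against 1.99. *Gfi1b* was at 1.76 in positive and 1.43 in negative cells, a log2 ratio of 0.30 (0.16-0.44) that was alike in the libraries, at 0.28, 0.30 and 0.32. At this split it was below 2-fold, and 0 of 4 members were called higher, beside 0.522% of 10731 genes. *Gfi1*, with 1 UMI, could not be called. The *Gfi1b* ratio was 0.50 with another random thinning and 1.38, past 2-fold, with *Runx1* read at own depth. Its place below 2-fold therefore depended on the split. *Kdm1a* and *Rcor1* lay at 0.00 (-0.16 to 0.16) and 0.06 (-0.18 to 0.30).

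Clusters 1 to 4 held few *Runx1*-positive cells (45, 87, 8 and 27) and few UMIs of the repressors. In cluster 2, 4 of the 32 *Gfi1* UMIs lay in the positive cells, a log2 ratio of 3.48 (1.50-4.99), with none in the positive cells of library 3. In cluster 1, 6 of the 7 *Gfi1* UMIs lay in 1 positive cell. *Rcor1* was at 0.391 against 0.617 in cluster 1, a log2 ratio of -0.66 (-1.29 to -0.09), with -0.81, 0.08 and -1.63 in the libraries, which turned to 0.15 with *Runx1* read at own depth.

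**Figure D2:**
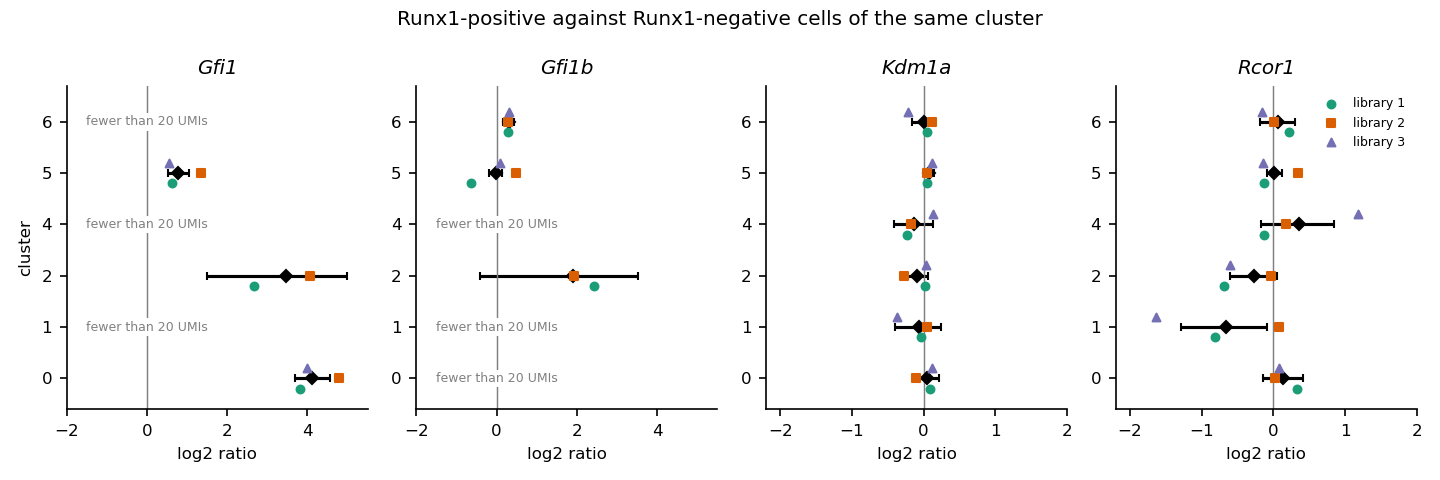
Log2 ratio (horizontal axis) of the level of each gene in *Runx1*-positive over *Runx1*-negative cells of the same cluster (vertical axis). Diamonds give all cells with a 95% conditional binomial interval, and coloured points the libraries that have a ratio. *Gfi1* in cluster 0 lies at 4.12, with libraries at 3.82, 4.79 and 3.99, while *Kdm1a* in that cluster lies at 0.04 and *Rcor1* at 0.14. Cluster 3 is left out because library 3 had no *Runx1*-positive cell there.

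The cells of cluster 0 that held *Gfi1* carried blood genes together with endothelial genes. At 5,000 UMIs 30 cells were *Gfi1*-positive, 17, 9 and 4 in the libraries, with a median depth of 19261.5 UMIs against 13952.5 in the 692 negative cells. This comparison was chosen after values were seen. Of 11477 genes 2.90% were called higher and 12.5% lower. The positive group is small, so a gene can be called lower from 0 or few UMIs. The part of this in the 12.5% was not tested.

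Of 8 genes that mark emerging blood 7 were measured, with 4 called higher and 0 lower, and a list median of 2.42 on the log2 scale beside -0.02 over all genes. They were *Kit*, the stem cell factor receptor, at 0.818 against 0.153 UMIs per 10,000, *Hlf*, a stem cell transcription factor, at 0.577 against 0.0679, *Adgrg1*, the adhesion receptor GPR56, at 1.20 against 0.168, and *Spn* (CD43) at 0.176 against 0.0251. *Mecom*, the stem cell factor EVI1, had a log2 ratio of -0.17 (-0.38 to 0.04) and *Cd34* of -0.79 (-0.94 to -0.64). *Ptprc*, which encodes the pan-leukocyte CD45, had 0 UMIs in the 30 cells and 17 in the negative ones. *Itga2b* (CD41) was at 0.0962 against 0.0645.

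Of 10 blood regulators 9 were measured, with 4 called higher and 0 lower. *Runx1* was at 2.23 against 0.222, *Myb*, needed for definitive blood, at 0.401 against 0.0377, *Spi1*, the myeloid factor PU.1, at 0.561 against 0.106, and *Tal1* at 0.978 against 0.439. *Gata1*, the erythroid and megakaryocyte factor, had 0 UMIs in these cells and 7 in the rest. A limit of 3 UMIs lies 8.20-fold above the negative cells, so no difference is read from this. *Fli1* was at 1.56 against 1.70, a log2 ratio of -0.13 (-0.44 to 0.16).

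Of 12 endothelial genes 0 were called higher and 4 lower, with a list median of -0.75. Those called were *Emcn* (endomucin) at 2.89 against 7.28, *Sox18* at 1.25 against 2.74, *Sox17*, a factor of arterial and haemogenic endothelium, at 1.65 against 3.54, and *Kdr* (VEGF receptor 2) at 2.45 against 5.25. *Cdh5* (VE-cadherin), on which the cells were sorted, was at 6.33 against 9.45 and seen in 30 of the 30 cells at their own depth, and *Erg* was at 1.03 against 1.02. Lower did not mean absent, as *Kdr* was found in 26 of the 30 cells and *Sox17* in 23.

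Markers of other cell types were also summed in these 30 cells. The 11 granulocyte genes summed to 0.0802 UMIs per 10,000 against 0.0796 in the negative cells, the 9 macrophage genes to 0.112 against 0.250 and the 8 megakaryocyte genes to 0.321 against 0.287. The 8 erythroid genes summed to 0.385 against 1.07, with 1 called higher and 1 lower of 5 measured. The adult globin gene *Hbb-bs* was the 1 called higher, at 0.225 against 0.0452, from 5 of the 30 cells, and *Hba-a1* the 1 lower. Of 6 fibroblast or stromal genes 4 were measured, and *Pdgfra*, for which the cells were sorted negative, was called higher, at 0.0962 against 0.0193, from 6 UMIs in 5 of the 30 cells, a log2 ratio of 2.32 (0.73-3.66) with 2.95, 1.62 and 1.93 in the libraries. That list summed to 0.449 against 0.302, and the part of these markers in the other differences was not tested. *C1qa* and *C1qb* were at 0 UMIs against 26 and 46 in the negative cells. A limit of 3 UMIs lies 2.21-fold and 1.25-fold above the negative cells, so no lower level is read from this. In cluster 5 the granulocyte and macrophage sums were 16.6 and 19.7.

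The 10 genes with the largest ratio upwards were *Clec4e*, *Angpt1*, *Pla2g4a*, *Dyrk3*, *Myb*, *Sfrp2*, *Runx1*, *Hlf*, *Neurl3* and *Mycn*. *Angpt1*, a TIE2 ligand, was at 0.513 against 0.0427, *Neurl3*, a ubiquitin ligase gene expressed in haemogenic endothelium, at 1.06 against 0.128, and *Mycn* at 2.16 against 0.277 and in 25 of the 30 cells. The 10 downwards were *Depp1*, *Hba-a1*, *Fbln5*, *Vwa1*, *Pdlim3*, *Cxcl12*, *Cxcl2*, *Tmem255a*, *Hbb-y* and *Hbegf*, of which the first 7 had no UMI in the 30 cells. *Depp1* was at 1.30 in the negative cells and at least 27.0-fold lower in the positive ones, at a floor of 3 UMIs over the 30 cells. *Cxcl12*, a chemokine of arterial endothelium and stroma, was at least 5.90-fold lower.

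Of 19 genes known as targets of GFI1 or GFI1B, 14 were measured here, with 3 called higher and 2 lower, beside 2.90% and 12.5% of all genes. Those called higher included the homeobox genes *Hoxa9* at 1.59 against 0.459 and *Meis1* at 1.27 against 0.428. Those called lower were the cell cycle inhibitor *Cdkn1a* and the cytokine signalling inhibitor *Socs3*, each from 1 UMI in the 30 cells, with log2 ratios of -3.83 (-9.14 to -1.34) and -2.95 (-8.26 to -0.45). The list median was -0.05, beside -0.02 over all genes.

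**Figure D3:**
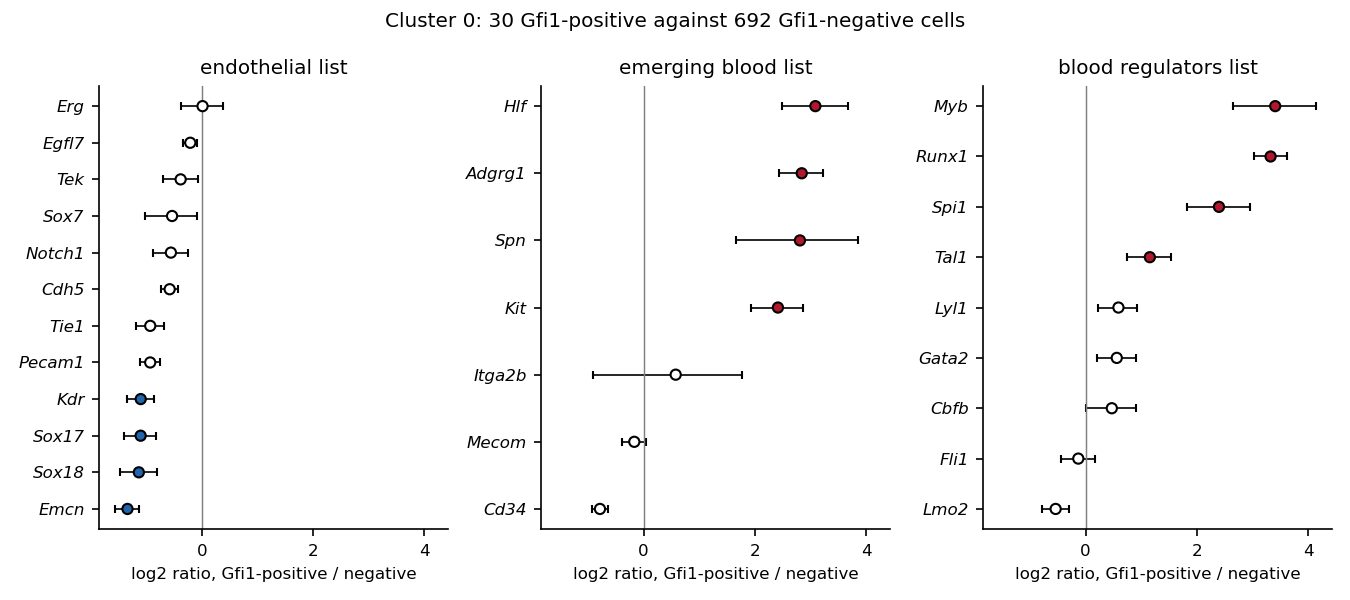
Log2 ratio (horizontal axis) of the level in 30 *Gfi1*-positive over 692 *Gfi1*-negative cells of cluster 0, for the measured genes of 3 lists (vertical axis), with 95% conditional binomial intervals. Red and blue points mark genes called higher and lower, and white points genes not called. *Hlf*, *Adgrg1*, *Spn*, *Kit*, *Myb*, *Runx1*, *Spi1* and *Tal1* lie to the right in red and *Emcn*, *Sox18*, *Sox17* and *Kdr* to the left in blue.

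Among the 54 *Runx1*-positive cells of cluster 0, the 35 with any *Gfi1* UMI held *Runx1* at 3.02 UMIs per 10,000 and the 19 without held it at 1.71, a log2 ratio of 0.83 (0.41-1.26). Library 1 carried this difference, with ratios of 1.86, 0.29 and 0.06 in the libraries. For *Kdm1a* (2.48 against 2.02) and *Rcor1* (1.08 against 0.838) the intervals of the log2 ratio included 0, at -0.10 to 0.71 and -0.25 to 1.02.

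Cluster 5 held several kinds of blood cell, and the repressors were unevenly spread over them. The cells were split by *Mpo*, the myeloperoxidase of granulocyte progenitors, and *C1qb*, a complement gene of macrophages, at 5,000 UMIs. In the 685 cells with *C1qb* alone *Gfi1* was at 0.00237 UMIs per 10,000 (from 6 UMIs) and *Gfi1b* at 0.00910 (23 UMIs). In the 325 cells with *Mpo* alone they were at 0.0926 (0.0774-0.110) and 0.261 (0.235-0.289). Both were highest in the 507 cells with neither, at 0.199 (0.180-0.220) and 0.459 (0.429-0.490), which held 73.2% and 69.2% of their UMIs in this cluster. In each library the cells with neither marker lay above those with *Mpo* alone, and these above those with *C1qb* alone. The 51 cells with both markers had 6 and 9 UMIs.

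*Kdm1a* and *Rcor1* followed the same order within a narrow range. *Kdm1a* was at 1.34 (1.29-1.40) in cells with neither marker, 1.24 (1.18-1.29) in those with *Mpo* alone and 0.962 in those with *C1qb* alone. *Rcor1* was at 0.622 (0.588-0.658), 0.523 (0.486-0.562) and 0.421 (0.396-0.447). The *Kdm1a* intervals of cells with neither marker and with *Mpo* alone overlap slightly, and the *Rcor1* intervals do not.

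**Figure D4:**
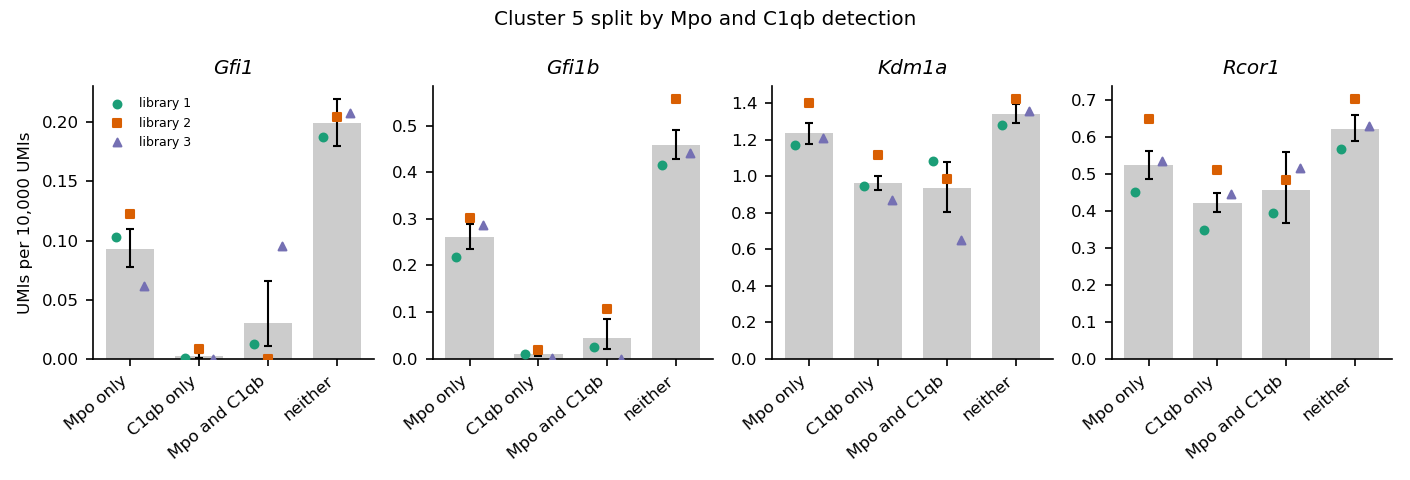
Level of each gene (vertical axis, UMIs per 10,000 UMIs, each panel on its own scale from 0) in cells of cluster 5 with *Mpo* alone (325), *C1qb* alone (685), both (51) or neither (507). Bars give all cells with a 95% Poisson interval, and points the libraries. *Gfi1* and *Gfi1b* are near 0 in the *C1qb* cells and highest in the cells with neither marker, and *Kdm1a* and *Rcor1* are present in all.

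The 60 *Gfi1*-positive cells of cluster 5, 20, 25 and 15 in the libraries, were compared with the 1508 negative ones, at median depths of 28312 and 36544 UMIs. Of 13293 genes 8.99% were called higher and 11.0% lower. All 9 macrophage genes were called lower, such as *Csf1r*, the M-CSF receptor, at 0.0593 against 1.90 and *C1qb* at 0.108 against 7.20. The negative cells include the *C1qb* cells, so these differences partly restate the split above. Of 12 endothelial genes 8 were called higher and 0 lower, among them *Cdh5* at 2.02 against 0.540, *Tie1* at 1.02 against 0.265 and *Erg* at 0.673 against 0.184. The list median was 1.44, beside 0.08 over all genes, and *Cdh5* was found in 53 of the 60 cells.

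Of 8 genes of emerging blood 5 were called higher, led by *Hlf* at 0.970 against 0.120 and *Mecom* at 0.975 against 0.121, with *Kit*, *Cd34* and *Adgrg1*. *Ptprc* was the 1 called lower, at 0.426 against 1.10. Among blood regulators *Myb* and *Tal1* were called higher and *Gata1* lower, at 0.0808 against 0.221, while *Runx1* was at 2.06 against 1.28 and *Spi1* at 3.09 against 3.39.

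The 10 genes with the largest ratio upwards were *Acta2*, *Tagln*, *Pdzk1ip1*, *Actc1*, *Myl9*, *Ocln*, *Sfrp2*, *Gsta4*, *Procr* and *Fam181b*. *Acta2*, *Tagln* and *Myl9* encode proteins of the contractile cytoskeleton and were found in 31, 22 and 23 of the 60 cells, at 2.08 against 0.0900, 0.587 against 0.0296 and 0.593 against 0.0336. *Actc1* rested on 5 cells, of which 1 held 22 of its 38 UMIs. *Procr*, the protein C receptor of stem cells and endothelium, was at 0.873 against 0.0775 and found in 42 of the 60. *Sfrp2*, a secreted WNT modulator, was named in both cluster 0 and cluster 5.

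The 10 downwards were *Hba-a2*, *Slc11a1*, *Ccl12*, *Cd83*, *Fcna*, *Gpr34*, *P2ry12*, *Ifi207*, *Hba-x* and *Mrc1*. The first 8 had no UMI in the 60 cells. *Slc11a1*, a metal transporter of macrophages, was at least 19.2-fold lower at the floor of 3 UMIs. *Mrc1*, the mannose receptor, had 1 UMI against 8572, a log2 ratio of -8.07 (-13.37 to -5.59).

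For granulocyte genes a few cells carried most UMIs. The 11 genes summed to 95.3 UMIs per 10,000 in *Gfi1*-positive cells against 14.2, with *S100a8* found in 4 cells. *Elane*, *Cebpe* and *Ltf* were called higher, from 4, 6 and 3 cells, and *Mpo* was at 2.88 against 3.16.

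At their own depth 161 cells of cluster 5 held *Gfi1*. Split by genes chosen after their values were seen, 133 of them had an *Hlf* or *Mecom* UMI and none of *Ngp* or *Camp*, genes of neutrophil granules, 9 had *Ngp* or *Camp* alone and 19 had neither. Of the 421 cells with *Hlf* or *Mecom* alone 31.6% (27.2-36.3) held *Gfi1*, and of the 19 with *Ngp* or *Camp* alone 47.4% (24.4-71.1) did. Of the 1130 cells with neither, 1.68% (1.02-2.61) did, at a median depth of 36437.5 UMIs beside 34422 in the 421. The level of *Gfi1* was 0.282 (0.257-0.309), 0.358 (0.242-0.511) and 0.00804 (0.00560-0.0112) in these 3 classes. The first class held 469 of the 534 *Gfi1* UMIs of cluster 5, the second 30 and the third 35. These marker genes were picked because they went with *Gfi1*, so the split is a description.

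*Gfi1b* was spread otherwise. Its level was 0.263 (0.239-0.289) in the 421 cells with *Hlf* or *Mecom* alone and 0.196 (0.183-0.209) in the 1130 with neither. Of the 421 cells 32.3% (27.9-37.0) held *Gfi1b*. Of the larger class of 1130 cells 19.6% (17.4-22.1) did, which were 222 of its 360 positive cells. Of the 19 cells with *Ngp* or *Camp* alone 2 held it.

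The 118 *Gfi1b*-positive cells of cluster 5 at 5,000 UMIs, 44, 52 and 22 in the libraries, were compared with the 1450 negative ones, at median depths of 38972 and 35832 UMIs. This comparison too was chosen after values were seen. Of 13293 genes 2.69% were called higher and 13.1% lower. Here too the positive group is the smaller one, so a gene can be called lower from 0 or few UMIs. Of 8 erythroid genes 4 were called higher and 0 lower, among them *Klf1*, the erythroid Krüppel-like factor, at 1.12 against 0.234, *Epor*, the erythropoietin receptor, at 0.444 against 0.104, and *Car1* at 0.268 against 0.0618. Of 8 megakaryocyte genes 6 were called higher and 2 lower. Those higher were receptor and surface genes, such as *Itga2b* at 0.554 against 0.181 and *Gp9*, of the platelet glycoprotein Ib complex, at 0.248 against 0.0761, and those lower were the platelet chemokines *Ppbp* and *Pf4*, the latter at 0.341 against 1.23.

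All 9 macrophage genes and 9 of 11 granulocyte genes were called lower, among them *Elane* at 0.00394 against 0.402. The negative cells again include most of the *C1qb* cells, so the macrophage calls partly restate the split by *Mpo* and *C1qb*. *Elane* was at 13.1 in the 19 cells with *Ngp* or *Camp* alone, of which 2 held *Gfi1b*. It was at 0.206 in the 1130 cells without *Hlf*, *Mecom*, *Ngp* or *Camp*. *Mpo* was at 2.51 against 3.21. Of 10 blood regulators *Gata1* was at 0.678 against 0.175, and *Gata2*, *Tal1* and *Myb* were also called higher, whereas *Spi1* was called lower, at 1.18 against 3.58. No endothelial gene was called in either direction, with *Cdh5* at 0.378 against 0.604.

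The 10 genes with the largest ratio upwards were *Slc38a5*, Gm15915, *Sh2d4a*, *Icam4*, *Klf1*, *Ccl17*, *Mfsd2b*, *Samd14*, *Ermap* and *Smim1*. *Icam4*, *Ermap* and *Smim1* encode red cell surface antigens, and *Mfsd2b* a lipid exporter of red cells and platelets. *Smim1* was at 1.41 against 0.313 and found in 70 of the 118 cells. The 10 downwards were *S100a8*, *Camp*, *Ngp*, *Gzmb*, BC100530, Gm5483, *S100a9*, *Ccl12* and the embryonic globins *Hbb-y* and *Hba-x*. *S100a8* had 0 UMIs in the 118 cells against 21305, and *Hba-x* 27 against 35518.

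Of the target list, all 19 genes were measured in cluster 5. *Gfi1*-positive cells had 6 called higher and 6 lower, beside 8.99% and 11.0% of all genes, with a list median of 0.26 beside 0.08. *Gfi1b*-positive cells had 2 higher and 8 lower, beside 2.69% and 13.1%, with a list median of -0.48 beside -0.02. *Egr1*, *Csf1r*, *Irf8*, *Socs3* and *Il6ra* were called lower in both, in comparisons that share most of their negative cells. *Irf8*, a factor of monocytes and macrophages, was at 0.0539 against 1.25 with *Gfi1* and at 0.181 against 1.31 with *Gfi1b*. *Elane*, the neutrophil elastase gene, was called higher with *Gfi1* and lower with *Gfi1b*. *Hoxa9* was at 1.12 against 0.163 with *Gfi1* and at 0.280 against 0.184 with *Gfi1b*, where it was not called.

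**Figure D5:**
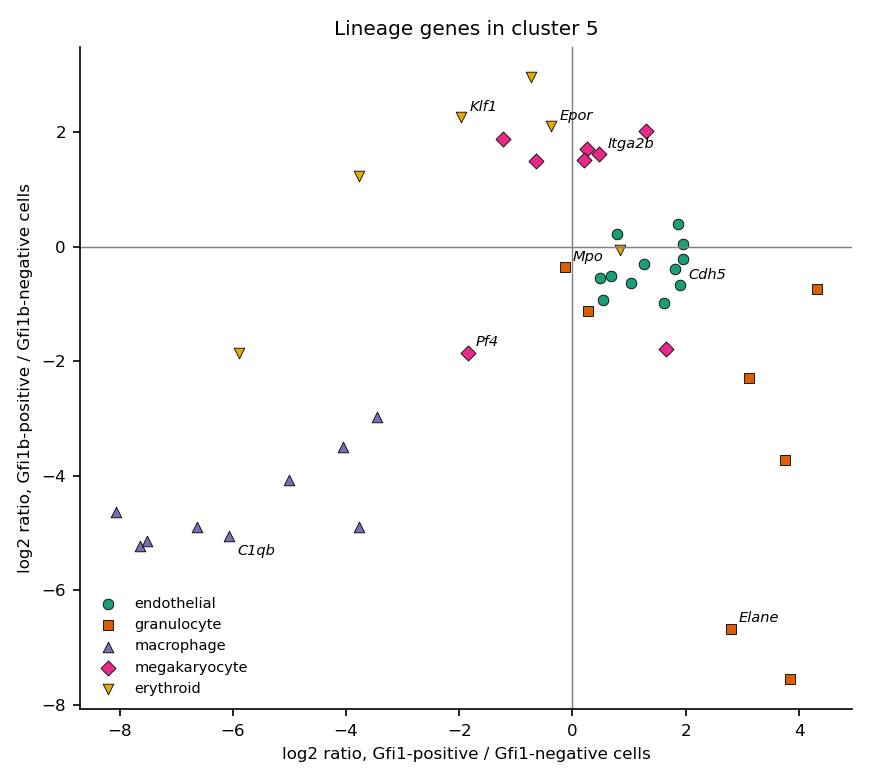
Lineage genes in cluster 5, with the log2 ratio between *Gfi1*-positive and negative cells on the horizontal axis and that between *Gfi1b*-positive and negative cells on the vertical axis. Each point is 1 gene of 5 marker lists that had at least 20 UMIs and a UMI in each group. Macrophage genes lie low on both axes, endothelial genes to the right, and *Klf1*, *Epor* and *Itga2b* high.

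How often *Gfi1* and *Gfi1b* were seen in the same cell of cluster 5 depended on depth. At 5,000 UMIs 60 cells had *Gfi1*, 118 *Gfi1b* and 2 both, which is 1.14% of the 176 with either (0.138-4.04), while the product of the shares gives 4.52 cells. At each cell's own depth 161 had *Gfi1*, 360 *Gfi1b* and 54 both, with 36.9 from the product. The product takes all cells of the cluster as alike. Of the 685 cells with *C1qb* alone, however, 4 held *Gfi1* and 15 *Gfi1b* at their own depth. The product count therefore does not allow for the kinds of cell in the cluster. The order between the observed and this product count also differed between the depths, and neither exclusion nor co-expression was read from it. In cluster 0, 4 of 65 cells with either gene had both at their own depth, with 0.810 from the product. At 5,000 UMIs 1 of 36 did, with 0.291 from the product, and these are few cells. In cluster 6 the 1 cell with *Gfi1* had no *Gfi1b*.

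In cluster 5 *Gfi1b* was at 0.135 in *Gfi1*-positive and 0.216 in negative cells, a log2 ratio of -0.68 (-1.31 to -0.11), with -0.19, -1.21 and -0.86 in the libraries. *Rcor1* had a log2 ratio of 0.63 (0.38-0.87) with *Gfi1*, at 0.48, 0.86 and 0.53 in the libraries, and of 0.39 (0.22-0.55) with *Gfi1b*, at 0.56, 0.34 and 0.22. *Kdm1a* lay at 0.44 (0.26-0.61) with *Gfi1* and at 0.12 (-0.01 to 0.23) with *Gfi1b*. None of these reached 2-fold. In both splits the negative cells include most of the 685 cells with *C1qb* alone. *Rcor1* was at 0.421 and *Kdm1a* at 0.962 in those cells, beside 0.622 and 1.34 in cells with neither marker. The ratios of *Rcor1* and *Kdm1a* therefore partly restate that split, and how far was not tested. Of 12 LSD1-CoREST partners 0 were called higher and 0 lower with *Gfi1*, beside 8.99% and 11.0% of all genes, and the list median was 0.59 beside 0.08. With *Gfi1b* 1 was called higher and 0 lower, beside 2.69% and 13.1%, with a list median of 0.12 beside -0.02. The 1 called was *Gse1*, at 0.513 against 0.227.

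The cells of the megakaryocyte-like cluster 6 were also split by a *Gfi1b* UMI among 5,000. *Gfi1b* itself was at 2.31 against 1.01, and 108 of the 175 negative cells held a *Gfi1b* UMI at their own depth, so the split does not part cells with the transcript from cells without it. Of 10731 genes 0.335% were called higher and 3.32% lower between 134 positive and 175 negative cells, at median depths of 36420.5 and 29511 UMIs. Of the 8 megakaryocyte genes 0 were called higher and 0 lower, and their sum was 203 against 203 UMIs per 10,000. The largest ratios upwards at the level required of named genes ran from *Slpi* (0.74 on the log2 scale) through *Mis12*, *Hist1h4i*, *Cc2d2b*, *Hist1h3c*, *Banp*, *Pias1*, *Slc35b2* and *Ippk* to *Syap1* (0.54), all below 2-fold.

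The 10 genes with the largest ratio downwards in cluster 6 were *Rhox5*, *Dppa5a*, *Ifitm1*, *Hbb-y*, *S100a6*, *Asb4*, *Peg3*, *Gpc3*, *Ptn* and *Cd24a*. *Rhox5* and *Dppa5a*, germline and pluripotency genes, were found in 10 and 8 of the 175 negative cells. *Hbb-y* was at 3.16 against 27.0, and 1 positive cell held 1465 of its 1593 UMIs in positive cells. Split by *Kdr*, the 123 cells of cluster 6 with a *Kdr* UMI held *Gfi1b* at 1.46 (1.71, 1.33 and 1.42 in the libraries) and the 186 without at 1.70 (1.54, 1.81 and 1.83), at median depths of 19123 and 36885.5 UMIs. Library 1 went against libraries 2 and 3 in this split.

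Genes with the most similar pattern over the 21 groups of cluster and library were ranked by Pearson correlation of log2 levels, among 10988 genes. The groups share libraries and differ in depth, so the values are a description. *Gfi1* had *Acp6* (0.893), *Hlf* (0.845), *Rgs2* (0.839), *Tspan8* (0.815) and *Slc18a2* (0.814). *Gfi1b* had *Tuba8* (0.988), *Rgs18* (0.987), *Bin2* (0.979), *Dapp1* (0.979) and I830077J02Rik (0.978). *Kdm1a* had *Smarcd1* (0.964), a subunit gene of the BAF chromatin remodeller, with *Nr2f6*, *Kirrel*, *Chn1* and *Purg*. *Rcor1* had *Sel1l* (0.964), followed among others by *Ncoa7*, *Adam10* and *Glb1*. With ranks in place of values 1, 0, 1 and 2 of the 5 stayed nearest for *Gfi1*, *Gfi1b*, *Kdm1a* and *Rcor1*, so the names depend on the measure.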

How the data were processed

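Single-cell RNA libraries (10x Chromium, 3′ v3 chemistry) were processed by the authors with Cell Ranger 3.1.0 against mm10, and the labels also name Seurat 3.1.5. The deposited counts are raw UMIs per gene and cell (252339042 in all, median 21225.5 per cell), with 27998 Ensembl IDs, of which 27722 were named from GENCODE and IDs of 1 name were summed. The deposited cluster numbers are the authors' Leiden clusters. A deposited table of normalized values was not used. The study states 9562 singlets of at least 5,000 UMIs. The table holds 9562 cells, of which 9472 pass that depth and 90 do not (6, 54, 19, 0, 6, 4 and 1 in clusters 0 to 6), and the latter were left out wherever cells were thinned. Libraries shared 13 barcodes.

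Levels, ratios, intervals and calls were computed in Python with scipy 1.17.1 as described beside the first results, after being tested on simulated data. Thinning drew UMIs without replacement with a fixed seed. Doublets were called per library with the Scrublet routine of scanpy 1.11.5 as an alternative only, which marked 208 cells but 0 of 3958 in library 2, where it has not worked. A score above 0.2 in every library (296 cells) was therefore added.

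The named genes are the 4 members, genes of fixed lists as counts with examples, the 5 genes most correlated with each member (log2 of UMIs per 10,000 plus 0.01, genes with at least 0.1 in a cluster), and, per direction, the 10 genes of largest ratio between cells with and without *Gfi1* in cluster 5 or *Gfi1b* in cluster 6, at 0.2 UMIs per 10,000 or more in the higher group and with 1 direction in all libraries. The same rule was applied, after values were seen, to *Gfi1* in cluster 0 and *Gfi1b* in cluster 5. Some named genes are not reported here. The members and lists were chosen with earlier results of these data known.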

Additional observations from a re-analysis of the deposited data

Results flagged for a closer look

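Log2 ratios of *Rcor1* by *Runx1* detection had opposite signs in clusters 0 and 2, both endothelial-like, with the same sign in every library of each. In cluster 0 its log2 ratio between *Runx1*-positive and negative cells was 0.14 (-0.15 to 0.41), with 0.33, 0.02 and 0.08 in the libraries, and in cluster 2 it was -0.27 (-0.60 to 0.05), with -0.68, -0.03 and -0.61. Both intervals include 0, and the difference between the clusters was not tested.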

How the results depend on the processing

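No paired analysis was possible because the labels put all samples in 1 group, so no groups share replicate numbers. Splits of cells within a library are given per library as values. The level of *Gfi1* in cluster 0 was 0.132 as a mean of cells and between 0.131 and 0.172 with each library left out, and in cluster 5 0.107 as a mean of cells. The share of cells with more than 0.5 *Gfi1* UMIs per 10,000 was 6.59% in cluster 0 and 6.23% in cluster 5. With a minimum of 1 these were 4.40% and 4.45%, thinned 4.16% and 3.83%, and with any UMI 8.10% and 10.2%. The order of these clusters by share of cells therefore depended on the cut. The log2 ratio of *Gfi1* by *Runx1* was 5.34 in cluster 0 with any *Runx1* UMI at own depth and 4.59 as a mean of cells. In cluster 5 it was 1.28 with any *Runx1* UMI at own depth and 1.63 with at least 2 *Runx1* UMIs, both past 2-fold. *Gfi1b* was at 0.188 in cluster 5 and 1.41 in cluster 6 as means of cells, at 1.74 in cluster 6 without called doublets and 1.74 without cells over a doublet score of 0.2, and between 0.19995 and 0.232 in cluster 5 with each library left out. Its share over 0.5 was 13.3% in cluster 5 and 70.0% in cluster 6, with any UMI 22.9% and 78.1%, over 1 6.74% and 56.5%, thinned 7.53% and 43.4%, and between 63.2 and 82.3% in cluster 6 with each library left out. Its log2 ratio by *Runx1* in cluster 6 was 1.38 at own depth, past 2-fold, and 0.50 with another seed. *Kdm1a* in cluster 5 against clusters 0 to 2 lay at -0.91 without cells over that doublet score and -0.76 as a mean of cells. The share of *Gfi1* or *Gfi1b* cells with both in cluster 5 was 11.6% at own depth. *Rcor1* by *Runx1* in cluster 1 turned to 0.15 at own depth. The cause of these moves was not tested. With a minimum level of 1 in place of 0.2 UMIs per 10,000, 4 of the 10 genes named upwards and 2 downwards for *Gfi1* in cluster 5 were kept, and 0 and 1 for *Gfi1b* in cluster 6. Without the minimum of 20 UMIs, the share of genes called higher was 1.82% and lower 1.99% for *Runx1* in cluster 5, higher 1.49% for *Runx1* and 0.941% for *Gfi1b* in cluster 6, beside 1.10%, 1.09%, 0.522% and 0.335% with it. Depth limited the splits by detection, since a cell without a UMI among 5,000 may hold the transcript.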

Other observations

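Other genes whose proteins carry a SNAG domain lay mostly away from the blood-like clusters. *Snai1* and *Snai2*, regulators of mesenchymal transition, were highest in the stromal-like cluster 4, at 0.405 and 0.293 UMIs per 10,000, beside 0.0200 and 0.00671 in cluster 5. *Insm1*, known from neuroendocrine cells, was also highest in cluster 4, at 0.0819. Of 6 such genes 4 were measured between cluster 5 and clusters 0 to 2. Cluster 5 had *Snai3* called higher and *Snai1*, *Snai2* and *Insm1* lower, beside 12.9% of all genes called higher and 23.7% lower, with a list median of -3.01 on the log2 scale beside -0.14 over all genes.

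Cells were also divided by whether a UMI of the proliferation genes *Mki67* or *Top2a* was seen at 5,000 UMIs, a split chosen after values were seen. In cluster 5 *Gfi1* had a log2 ratio of -0.89 (-1.21 to -0.56) between the 1374 cells with such a UMI and the 194 without. That value rested on library 2, where the levels were 0.0697 and 0.519, beside 0.0838 and 0.0846 in library 1 and 0.0832 and 0.107 in library 3. *Gfi1b* lay at 0.01 (-0.25 to 0.27) and *Kdm1a* at 0.19 (0.07-0.30) in the same split. In cluster 0 the *Gfi1* ratio had the other sign, at 0.60 (0.18-1.01) between 274 cells with such a UMI and 448 without. Its levels by library were 0.252, 0.137 and 0.205 in the former and 0.181, 0.124 and 0.0774 in the latter.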
